A study of Mus musculus with 11 samples.

Results

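In all, 9 members make up the set described here: 5 chemokine genes (Cxcl12, Cxcl13, Cxcl14, Cxcl16 and Cx3cl1) and 4 chemokine receptor genes (Cx3cr1, Cxcr4, Cxcr5 and Ackr3, also known as Cxcr7). Each of the 9 genes was read by 1 probe set with a single gene symbol, out of 19938 genes with such a probe set on Affymetrix Mouse Gene 1.0 ST arrays. The set was chosen by a measured value of these same arrays, the low Cxcl13 level of mice without Rarb, which encodes a nuclear receptor for retinoic acid (RARβ). Differences of the members between genotypes are therefore descriptions without a test, and the counts of members past a threshold are not evidence. The arrays held RNA of the nucleus accumbens, the ventral part of the striatum, from 11 male mice aged 4 to 5 months that had not undergone behavioural testing. The groups were 6 wild-type (WT) mice and 5 RARβ-null mutant (Rarb-null) littermates, all bred from heterozygous parents on a mixed C57BL/6J and 129SvEms/j background, with 1 mouse per array. Tissue came from punches of the accumbens shell. The labels name no Cre line or tissue promoter and do not say which exons were removed, and whether the Rarb probe set reads RNA of the mutant allele was not tested. The extraction protocol gives the 2 group sizes in reverse, whereas the titles, the genotype labels and the design text give 6 WT and 5 mutants.

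Values are log2 expression after robust multi-array analysis (RMA), and a difference is the Rarb-null mean minus the WT mean with the standard error (SE) of a limma fit. Rarb itself spanned 11.70 to 11.81 in WT arrays and 9.72 to 10.01 in the mutants (difference -1.86, SE 0.047), so every array was on the side its label gives, with residual signal in the mutants. Genes with a mean over all arrays above the 40th percentile (6.99) entered the tests, 11963 in all. Of the members 5 lay above this line and 4 (Cxcl16, Cxcr4, Cxcr5 and Ackr3) below it. The scale of the arrays differed between genotypes. Array medians over all probe sets were 7.02 to 7.06 in WT and 7.08 to 7.11 in Rarb-null arrays. Interquartile ranges were 3.488 to 3.555 in WT and 3.378 to 3.486 in Rarb-null arrays, so neither measure overlapped. The median difference was -0.02 over the tested genes and 0.06 over the 7975 dimmer genes, of which 80.1% were higher in Rarb-null arrays. Precision is limited by the 11 arrays. In punched tissue, fewer cells of a type and less RNA per cell cannot be told apart.

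Chemokines are small secreted proteins that guide cell migration by activating G protein-coupled receptors on the target cell. In lymphoid tissue CXCL13 draws B cells through CXCR5, while CXCL12 acts on CXCR4 and is also bound by ACKR3, a scavenging receptor that removes it from the extracellular space. In the brain CX3CL1 is made mainly by neurons, either tethered to the membrane or shed from it, and its receptor CX3CR1 is found on microglia. CXCL16 is likewise made as a membrane protein, and CXCL14 is a chemokine of epithelia that is also made by some interneurons.

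Cxcl13 had the widest separation between genotypes among the 9 members. Its level was 8.66, 8.40, 8.49, 8.44, 8.37 and 9.11 in WT replicates 1 to 6. In Rarb-null replicates 1 to 5 it was 7.50, 7.15, 6.45, 6.39 and 6.19. Every null array lay below every WT array, with 0.87 between the lowest WT and the highest null array. The means were 8.58 ± 0.28 (SD, n = 6) in WT and 6.74 ± 0.56 (SD, n = 5) in Rarb-null arrays, a difference of -1.84 (SE 0.214) or 3.58-fold. Among the null arrays, replicates 1 and 2 stood above the other 3, so that the null arrays covered a range of 1.30 against 0.74 in WT. Leaving out any single array gave differences from -2.03 to -1.71. The difference was -1.74 with the level of cortical neuron markers in the model. Cxcl13 passed the filter on dim genes through its WT level, since its null mean lay below the line.

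The 250 bases before the RefSeq start sites of Cxcl13 and Ackr3 are shown because these 2 members had the lowest and the highest difference and had windows outside any longer transcript of the gene. Capitals mark matches to the hexamers AGGTCA and AGTTCA, which are among the forms of the half-site of retinoic acid response elements, searched on both strands. Sequences are given 5′ to 3′ on the strand of the gene in GRCm38.p6.
Cxcl13, chr5:95956689-95956938, plus strand: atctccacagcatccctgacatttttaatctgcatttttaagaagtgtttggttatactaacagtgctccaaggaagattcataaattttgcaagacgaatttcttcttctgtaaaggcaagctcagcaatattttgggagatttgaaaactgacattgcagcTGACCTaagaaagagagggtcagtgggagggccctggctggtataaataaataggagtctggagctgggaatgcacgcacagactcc
Ackr3, chr1:90203730-90203979, plus strand: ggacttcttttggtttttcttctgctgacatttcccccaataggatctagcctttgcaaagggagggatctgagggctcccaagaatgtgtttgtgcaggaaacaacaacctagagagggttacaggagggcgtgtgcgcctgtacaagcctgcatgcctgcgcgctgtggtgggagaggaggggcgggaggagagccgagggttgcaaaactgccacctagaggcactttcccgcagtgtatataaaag
The Cxcl13 window held 1 match to these hexamers, TGACCT, which is AGGTCA on the opposite strand, beginning 87 bases before the start site. The Ackr3 window held no match to them. Downstream of its match, the Cxcl13 window also reads gggtca, left in small letters. This fits the wider pattern used below for direct repeats. Single copies of that pattern were not counted in any window. Of 32851 RefSeq windows of this length, 14% held AGGTCA and 11.8% held AGTTCA, so a single match is common. The 7 members with a window (Cxcl16 and Cxcr5 had no entry) had 1 further match to AGGTCA or AGTTCA. It was in Cxcl14, also AGGTCA on the opposite strand, 130 bases before the listed start. The whole Cxcl14 window lies inside the annotated gene and is not printed. Direct repeats of the hexamer with 1, 2 or 5 bases between (DR1, DR2 and DR5, with A or G at the first and G or T at the third position) were in none of the 7 windows, and in 0.164%, 0.174% and 0.0883% of all windows. A match describes letters only and says nothing of binding by the receptor.

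Cxcl14 was lower in Rarb-null arrays by a much smaller amount. WT replicates 1 to 6 read 10.18, 10.36, 10.06, 10.16, 10.28 and 10.07, and Rarb-null replicates 1 to 5 read 9.78, 9.86, 9.85, 9.88 and 10.004. The groups did not overlap, but the gap between them was 0.06. The means were 10.18 ± 0.12 (SD, n = 6) and 9.88 ± 0.08 (SD, n = 5), a difference of -0.31 (SE 0.056) or 1.24-fold. Rarb-null replicate 5 had the highest Cxcl14 level of its group and also the highest level of cortical neuron markers (9.57, against 8.54 to 8.89 in the other null arrays). With the cortical marker level in the model the difference was -0.41. It was -0.38 when 3 arrays with extreme cortical markers (Rarb-null replicate 5, WT replicate 3 and WT replicate 4) were removed.

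The remaining 3 ligands overlapped between genotypes. Cxcl12, which guides and retains CXCR4-bearing cells, read 7.99, 8.09, 8.05, 8.05, 8.09 and 8.12 in WT and 8.13, 7.99, 8.09, 8.23 and 8.20 in Rarb-null arrays. Its lowest null array matched the lowest WT array to within 0.01, and its difference was 0.06 (SE 0.043). Cx3cl1, the neuronal ligand of the microglial receptor, read 11.89, 12.08, 12.06, 12.10, 12.02 and 11.97 in WT and 12.04, 11.99, 12.14, 12.11 and 12.09 in Rarb-null arrays. It covered 0.21 across WT arrays, and its difference was 0.05 (SE 0.042). Cxcl16, a scavenger of oxidised lipid as well as a ligand of CXCR6, lay between 5.34 and 5.43 in WT and between 5.42 and 5.49 in Rarb-null arrays. Its difference of 0.05 (SE 0.031) was close to the median of dim genes, and it became -0.01 after cyclic loess normalisation.

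Among the receptors, Ackr3 stood apart between genotypes. It read 6.67, 6.76, 6.58, 6.42, 6.53 and 6.60 in WT replicates 1 to 6 and 6.97, 6.88, 6.90, 7.01 and 7.13 in Rarb-null replicates 1 to 5. All null arrays were higher than all WT arrays, with a gap of 0.12. The means were 6.59 ± 0.12 (SD, n = 6) and 6.98 ± 0.10 (SD, n = 5), a difference of 0.38 (SE 0.060) or 1.31-fold, where dim genes as a whole moved by 0.06. The gene lay just outside the filter, with a mean of 6.77 over all arrays, so it was not tested in the fit of brighter genes. Under the scaling alternatives the difference was 0.42 with arrays centred and 0.33 after cyclic loess. With cortical marker levels in the model it was 0.29, and 0.30 with those same 3 arrays removed.

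Cx3cr1, the fractalkine receptor of microglia, was only slightly higher in Rarb-null arrays. It read 9.44, 9.29, 9.44, 9.42, 9.39 and 9.36 in WT and 9.44, 9.45, 9.49, 9.48 and 9.60 in Rarb-null arrays. The groups overlapped by less than 0.01, at 9.44, and the difference was 0.10 (SE 0.039). Cxcr4, the signalling receptor of CXCL12, read 5.99 to 6.10 in WT and 6.04 to 6.23 in Rarb-null arrays, a difference of 0.08 (SE 0.038) that shrank to 0.01 after cyclic loess. Cxcr5, the receptor of CXCL13, read 4.92 to 5.10 in WT and 4.85 to 5.17 in Rarb-null arrays. Its difference was -0.01 (SE 0.054), smaller than its standard error, and it ran from -0.09 to 0.04 over the alternatives, so it has no settled sign.

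**Figure D1:**
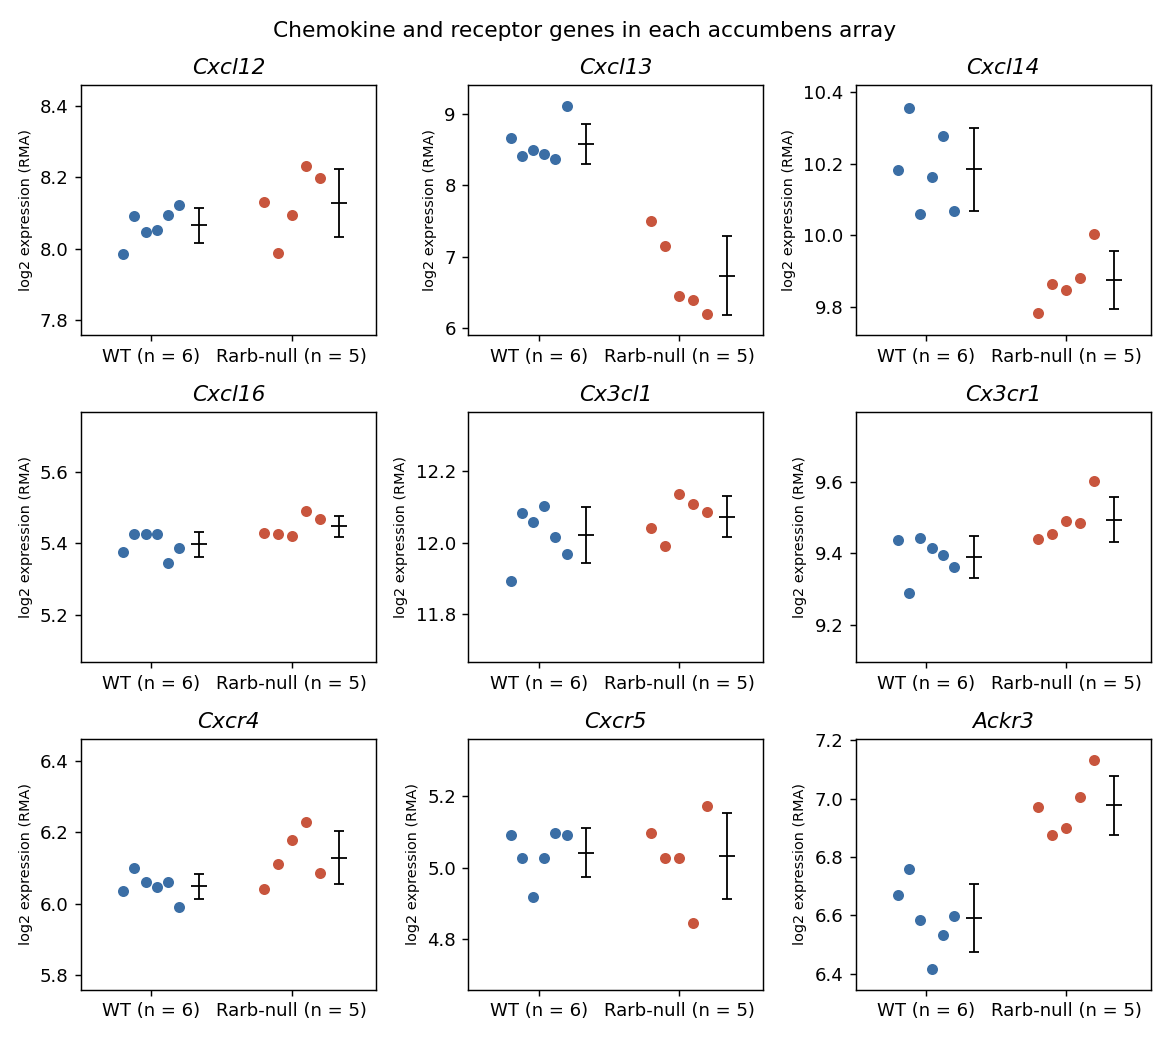
Log2 expression (RMA) of the 9 chemokine and receptor genes in each array, with WT in blue (n = 6) and Rarb-null in red (n = 5) and the mean ± SD in black; each panel has its own scale. The null arrays lie wholly below the WT arrays for Cxcl13 and Cxcl14 and wholly above them for Ackr3, and the other 6 genes overlap.

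Set beside all genes, the members' counts were as follows. The limma fit over 11963 genes called 19.6% at an adjusted p under 0.05 (Benjamini-Hochberg). In Rarb-null arrays 905 of these were higher (7.56%) and 1436 lower (12%), a split of 1677 and 939 with arrays centred. Of the 5 members tested, Cxcl13 and Cxcl14 passed, both lower, and Cxcl12, Cx3cl1 and Cx3cr1 did not. Without the filter 12.6% of 19938 genes passed (6.41% higher and 6.16% lower), and Ackr3 then passed as well, which made 3 of 9. The genotypes did not overlap for 3 of the 9 members (Cxcl13 and Cxcl14 lower, Ackr3 higher), where 7.87% of all genes did not overlap (3.29% higher and 4.58% lower). Above the filter this share was 11.2% (3.82% higher and 7.33% lower), against 2 of the 5 members. Because the low Cxcl13 level chose the set, nothing is read from these shares. The Cx3cr1 difference was 0.14 both with arrays centred and after cyclic loess, and it passed in these 2 of 22 settings only.

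The rest of the chemokine family was mostly dim. Of 51 further ligand and receptor genes listed, 48 had a probe set and 7 of these lay above the filter. The receptor gene Ackr2 was the 1 gene of the 7 that passed. Its product, like ACKR3, is an atypical receptor that internalises chemokines without G protein signalling, in this case inflammatory CC chemokines. Ackr2 read 7.15, 7.05, 7.04, 6.94, 7.02 and 7.11 in WT and 7.63, 7.54, 7.88, 7.96 and 7.59 in Rarb-null arrays. The groups were 0.39 apart, with all null arrays higher. Ackr2 rose by 0.67 (SE 0.072; limma, Benjamini-Hochberg adjusted p = 3.15e-05), and it passed in every one of the 21 settings that tested it. A further atypical receptor gene, Ackr1, the Duffy receptor of endothelial cells, differed by 0.11 (SE 0.066; limma adjusted p = 0.257).

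The other 5 tested genes did not pass, though Ccr7, Cxcl1 and Ccl17 had an unadjusted p under 0.05. Ccr7, a homing receptor of lymphocytes and dendritic cells, differed by 0.17 (limma adjusted p = 0.061) and its ligand gene Ccl19 by 0.10 (adjusted p = 0.35). Cxcl1 (0.15, adjusted p = 0.0804) attracts neutrophils, and Ccl17 (0.24, adjusted p = 0.09) is a ligand of CCR4. Ccl25, the thymic ligand of CCR9, gave 0.12 (adjusted p = 0.371).

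Without the filter, 5 of the 48 rose (10.4%, against 6.41% of all genes in that direction) and 0 fell in limma, where 3 lower genes had an unadjusted p under 0.05. The 4 besides Ackr2 were Ccl28, Cxcl17, Cxcl11 and Cxcl2, named here after their values were seen. Ccl28, a mucosal chemokine, spanned 5.94 to 6.20 in WT arrays and 6.31 to 6.98 in Rarb-null arrays, a rise of 0.52 (SE 0.112; limma, no filter, adjusted p = 0.00997). Cxcl17 (0.20), Cxcl11 (0.14) and Cxcl2 (0.17) were called with adjusted p from 0.031 to 0.0494 in that fit, and their arrays overlapped or touched. Ccl9, also named after its values were seen, had the lowest difference of the further ligands (-0.29, adjusted p = 0.0505 without the filter). Of the 41 dim genes 34 were higher in Rarb-null arrays (82.9%), close to the 80.1% of all dim genes.

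**Figure D2:**
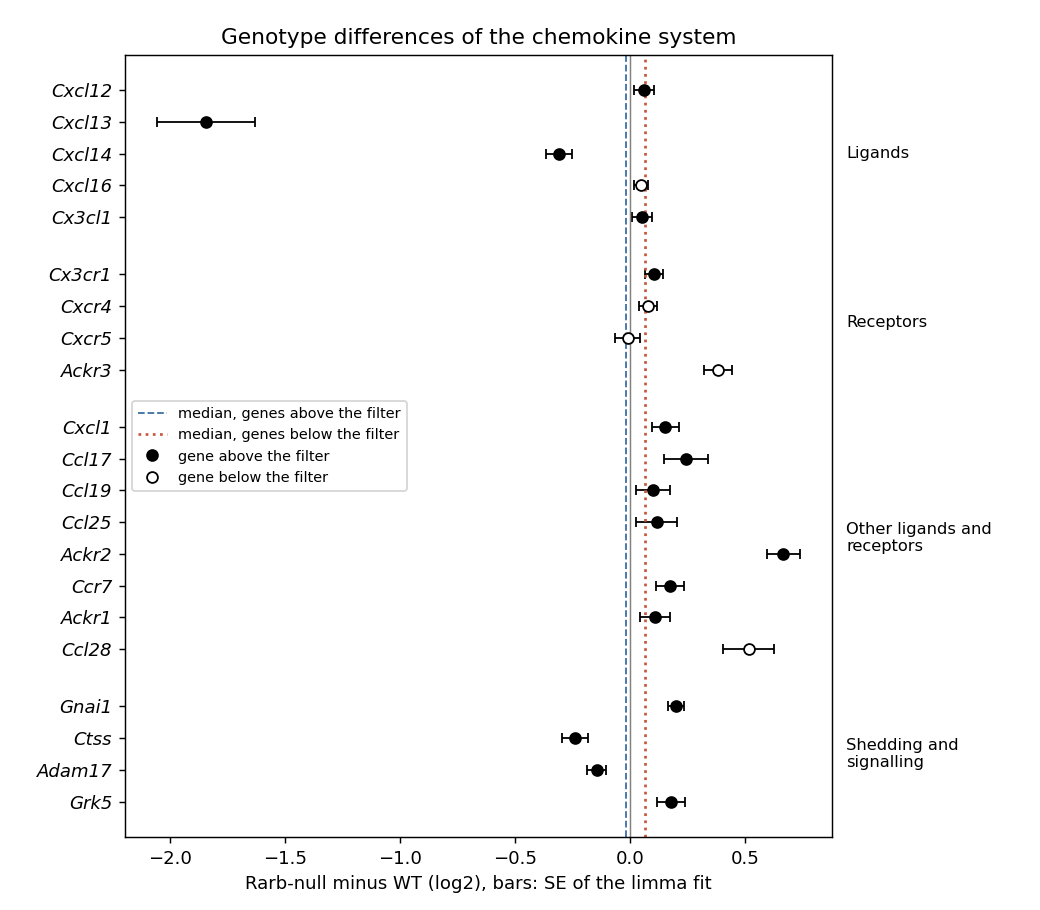
Differences between Rarb-null and WT arrays (log2, x axis) with the SE of the limma fit for the members and other chemokine system genes. Filled points lie above the filter on dim genes and open points below it. Of the genes named in the text, Cxcl17, Cxcl11, Cxcl2, Ccl9 (-0.29) and the lymphotoxin genes are not drawn. Cxcl13 lies at -1.84, Ackr2 at 0.67, Ccl28 at 0.52 and Ackr3 at 0.38, and the dashed and dotted lines mark the medians of tested genes (-0.02) and of dim genes (0.06).

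Of 18 tested genes that shed chemokines or carry their signal, 15 did not pass, 1 rose and 2 fell, with a median difference of 0.01, where 7.56% of all tested genes rose and 12% fell. Gnai1, an inhibitory G protein subunit used by chemokine and many other receptors, rose by 0.20 (SE 0.034; limma adjusted p = 0.00145), and its null arrays (11.40 to 11.55) lay above its WT arrays (11.23 to 11.34). Ctss, the gene of the microglial protease cathepsin S that releases soluble CX3CL1, fell by 0.24 (SE 0.056; limma adjusted p = 0.0106), with 8.88 to 9.19 in WT and 8.68 to 8.93 in Rarb-null arrays. Adam17, the gene of a sheddase of CX3CL1 and CXCL16, fell by 0.14 (SE 0.042; limma adjusted p = 0.0303). Gnai1 and Ctss passed in all 22 settings. Adam17 did not pass in 8, which were the removal of WT replicate 1, 5 or 6 or of Rarb-null replicate 2, 3 or 5, the cortical covariate and the removal of the 3 extreme arrays (-0.16 to -0.12, adjusted p 0.0529 to 0.0851). Grk5, a kinase that desensitises receptors, differed by 0.18 (limma adjusted p = 0.0531) and passed in 8 of 22 settings.

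The lymphotoxin pathway, which maintains Cxcl13 expression in lymphoid stroma, showed 0 calls among 3 tested genes in limma. Nfkb2 differed by 0.08 (SE 0.041; adjusted p = 0.167), the receptor gene Ltbr by -0.01 (SE 0.032; adjusted p = 0.832) and Tnfrsf1a by -0.01 (SE 0.064; adjusted p = 0.926), and 0 had an unadjusted p under 0.05. Without the filter 0 of 8 genes passed, and 1 had an unadjusted p under 0.05.

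Relations between members and their partners were examined within genotype, which does not use the contrast that chose the set. For 18 relations the deviations of each array from its genotype mean were correlated over 11 arrays, with a two-sided exact test over all 86400 permutations within genotypes. After Benjamini-Hochberg adjustment over the 18, 0 passed by Pearson's r or Spearman's rho, and 4 and 2 had an unadjusted p under 0.05. Each of the 5 pairings of a ligand gene with a receptor gene was far from the threshold. Whether CXCR4 is a receptor of CXCL14, which the pairing of Cxcl14 and Cxcr4 presumes, was not tested. Pearson's r was 0.18 for Cxcl12 and Cxcr4 (rho 0.09, exact p = 0.697, adjusted 0.836), 0.41 for Cxcl12 and Ackr3 (rho 0.49, exact p = 0.215, adjusted 0.483) and 0.19 for Cxcl13 and Cxcr5 (rho 0.16, exact p = 0.69, adjusted 0.836). For Cx3cl1 and Cx3cr1 it was -0.03 (rho 0.06, exact p = 0.934, adjusted 0.936), and for Cxcl14 and Cxcr4 0.32 (rho 0.36, exact p = 0.298, adjusted 0.596).

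Among the cell type lists the highest correlation in size was that of Cxcl14 with the mean level of cortical neuron markers (r = 0.75, rho = 0.58, exact p = 0.0192, adjusted 0.194). Without the 2 arrays farthest from the median marker level r was 0.43 (exact p = 0.441). Within WT arrays alone r was 0.77 and within Rarb-null arrays alone 0.70. With any single array left out it ran from 0.64 to 0.88. Removing the farthest arrays also narrows the range of marker levels, so how far the relation rested on them was not settled. For Cxcl13 and microglial markers the coefficients were negative (r = -0.69, rho = -0.73, exact p = 0.0311, adjusted 0.194), and r was -0.71 without the 2 farthest arrays (exact p = 0.0667). This relation passed with arrays centred (r = -0.83, adjusted p = 0.0167 by the exact test) and in no other setting. Cxcl13 and lymphocyte markers gave r = -0.72 (rho = -0.60, exact p = 0.0324, adjusted 0.194), which dropped to -0.25 without the 2 farthest arrays. Cxcl12 did not pass with either vessel list, mural cell markers (r = 0.57, rho = 0.55, exact p = 0.047, adjusted 0.212; 0.49 without the 2 farthest arrays) or endothelial markers (r = 0.61, rho = 0.55, exact p = 0.0974, adjusted 0.307; 0.13 without them). Cx3cr1 and the microglial list gave r = 0.55 (rho = 0.64, exact p = 0.102, adjusted 0.307). Pearson's r of Cxcl13 was 0.25 with striatal projection neuron markers (rho 0.14, exact p = 0.661, adjusted 0.836). With cortical neuron markers it was -0.18 (rho -0.13, exact p = 0.58, adjusted 0.836), and with fibroblast markers 0.17 (rho 0.02, exact p = 0.654, adjusted 0.836). Ackr3 and endothelial markers gave r = 0.42 (rho 0.52, exact p = 0.21, adjusted 0.483). For Cxcl16 and Cxcr4 with the microglial list r was 0.03 and 0.20, and for Cx3cl1 with cortical markers -0.03.

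The genes whose deviations most resembled those of Cxcl13 over the 11 arrays were Kcnn2 (r = 0.96), Ascc2 (0.88), 2610005L07Rik (0.87), Birc2 (0.85) and Caprin2 (0.84), the top of 11962 tested genes. Kcnn2 encodes a small-conductance calcium-activated potassium channel. It read 8.59, 8.48, 8.40, 8.33 and 8.28 in Rarb-null replicates 1 to 5, the same order as Cxcl13, and 8.43 in WT replicate 6, the array with the highest Cxcl13 level. None of the 5 passed the comparison of genotypes (limma adjusted p 0.106 to 0.914), and Kcnn2 itself differed by 0.13, opposite in sign to Cxcl13. For Cxcl14 the most similar genes were Lgi2, Cntn4, St8sia5, Dok5 and Glrx (each with r = 0.94), and none of these passed either (adjusted p 0.144 to 0.929). Such rankings take the highest of many values over few arrays and are descriptive.

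**Figure D3:**
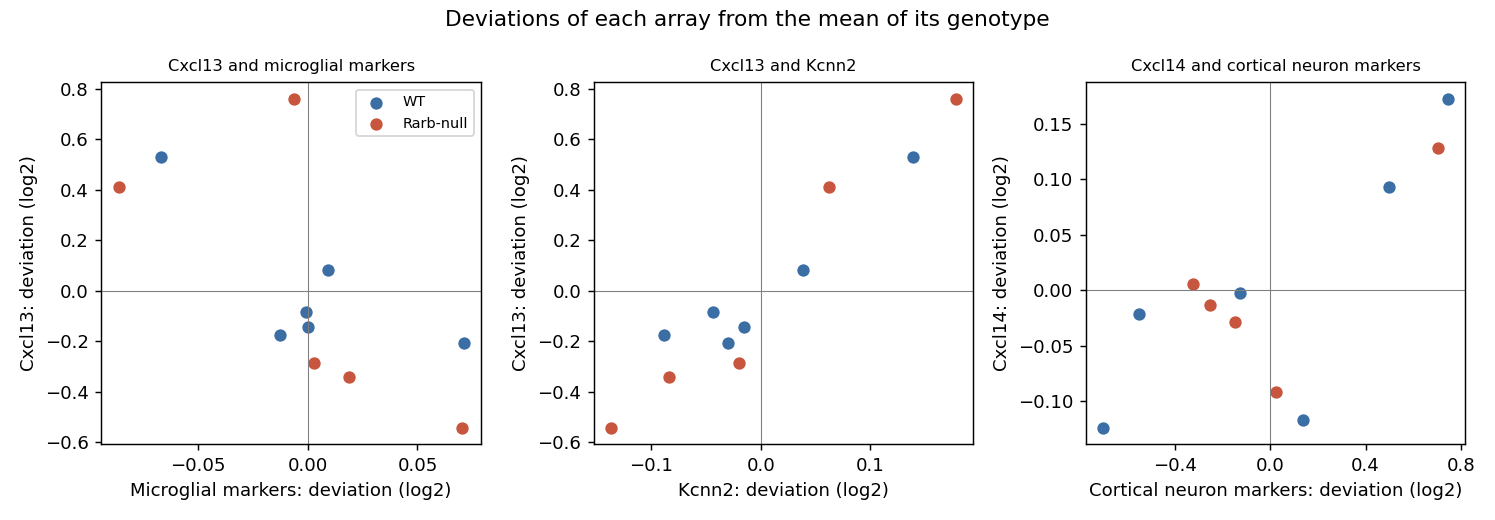
Deviation of each array from the mean of its genotype (log2) for Cxcl13 against the mean of microglial markers, Cxcl13 against Kcnn2, and Cxcl14 against the mean of cortical neuron markers; WT arrays are blue and Rarb-null arrays red. Pearson's r over the 11 arrays was -0.69, 0.96 and 0.75 in that order.

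Markers of the cells that could carry these transcripts were examined in 10 lists. For comparison with the counts below, 7.56% of all tested genes were called higher and 12% lower in limma. Without the filter these shares were 6.41% and 6.16%. Of 8 tested microglial markers 1 fell (Fcrls, -0.24), and the list mean was 8.20 to 8.34 in WT and 8.12 to 8.28 in Rarb-null arrays. Of 7 endothelial and 6 mural markers 0 passed in limma (1 and 0 with an unadjusted p under 0.05), with ranges of 8.36 to 8.46 against 8.30 to 8.43 and of 8.33 to 8.61 against 8.37 to 8.56. Fibroblast markers had 2 rises among 4 (Col1a1, 0.15, the higher), with list levels of 6.90 to 7.10 in WT and 7.01 to 7.21 in Rarb-null arrays. Lymphocyte markers were dim, with 1 of 7 above the filter and 0 called in limma (0 with an unadjusted p under 0.05), and list levels were 6.14 to 6.29 in WT and 6.18 to 6.39 in Rarb-null arrays. The 1 choroid plexus marker above the filter, Kl, fell (-0.41), while without the filter Ttr (0.25) also passed, as higher, and the median of the 5 was 0.11. The choroid plexus list level was 6.23 to 6.34 in WT and 6.22 to 6.31 in Rarb-null arrays. Astrocyte markers gave 1 rise (Gfap, 0.27) and 2 falls (Aldh1l1, -0.26, the larger) among 6, and oligodendrocyte markers 1 fall among 5 (Mag, -0.23). Their list levels were 10.18 to 10.28 against 10.14 to 10.23 and 9.72 to 9.96 against 9.66 to 9.94. Without the filter neither fibroblast rise passed, nor did Gfap or Mag.

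Cortical neuron markers were the most variable list. Their list mean was 7.47 to 8.92 in WT and 8.54 to 9.57 in Rarb-null arrays, and 0 of 3 tested genes passed in limma (adjusted p 0.0639 to 0.118, all 3 with an unadjusted p under 0.05) despite a median difference of 0.90. Striatal projection neuron markers fell in 5 of 7 cases (4 without the filter, where Ppp1r1b did not pass), with list levels of 12.30 to 12.37 in WT arrays and 11.98 to 12.11 in Rarb-null arrays, which did not overlap; Pde10a had the largest fall (-0.42). The part of either list in the Cxcl13 and Ackr3 differences was not tested. Values with the cortical marker level in the model, and the relations of Cxcl13 with both lists within genotypes, are given above.

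**Figure D4:**
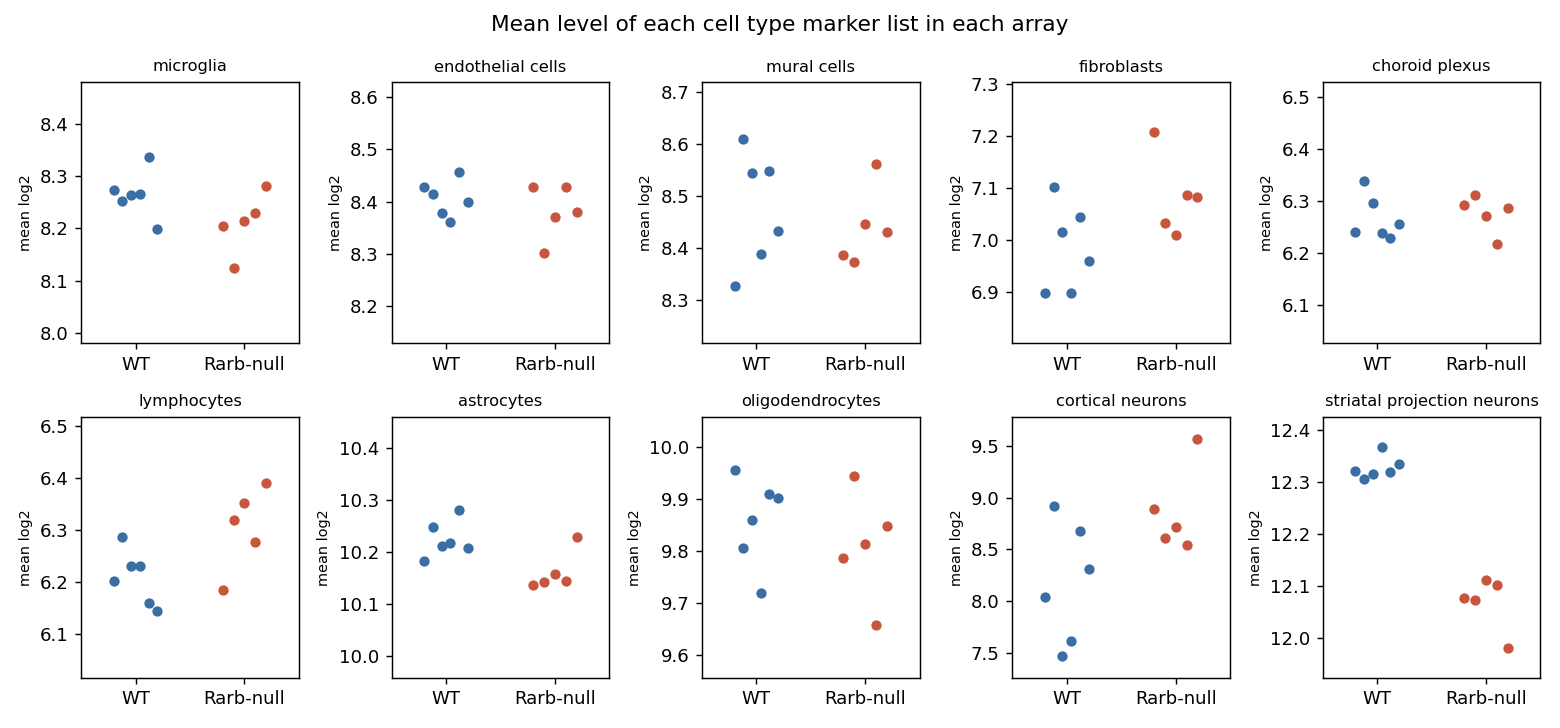
Mean log2 level of the measured genes of each cell type marker list in each array, with WT in blue and Rarb-null in red; each panel has its own scale. The genotypes are separate for striatal projection neuron markers (12.30 to 12.37 against 11.98 to 12.11) and overlap in the other 9 lists.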

How the data were processed

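Labels' titles assigned the arrays to groups. The deposited values are log2 expression after RMA by the authors, as the submitters' processing notes and per the labels' sample descriptions say; the base 2 was inferred from the values (2.62 to 14.2), and software version, array annotation build, scan date and background signal are not given in the sources used here. RMA compresses folds of dim probe sets. Of 35556 probe sets 21789 had 1 symbol in the platform annotation, updated through Entrez identifiers for 21698; the probe set with the highest mean represented a gene. Genotypes were compared with limma 3.58.1 in R 4.3.3 (lmFit, eBayes, no covariate) and Benjamini-Hochberg adjustment over 11963 genes; the procedure was checked on simulated data. SEs of genes below the filter come from the fit without it. Relations and figures used Python 3.11.15 with matplotlib 3.10.9. Promoter windows are RefSeq GRCm38.p6.

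The members, lists, relations and alternatives were chosen with earlier results of these data known. The 6 lists of ligands, receptors and pathway genes (members included) and 10 marker lists come from textbook knowledge. Named genes are Rarb, the members, up to 4 tested genes of each further pathway list with the smallest p, the 5 genes most like Cxcl13 and Cxcl14, and genes at the highest or lowest difference of a marker list. Ccl28, Cxcl17, Cxcl11, Cxcl2, Ccl9 and Ppp1r1b fall outside this rule and were named after their values were seen. Alternatives were no filter, a 60th percentile filter, centring, cyclic loess, trended robust variance, array weights, mean of probe sets, a replicate block, the cortical marker level as covariate, removal of 3 arrays with extreme cortical levels, and removal of each array. The labels do not pair the replicate numbers across genotypes.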

Additional observations from a re-analysis of the deposited data

Results flagged for a closer look

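In 78 groups of arrays (39 genes in each genotype: Rarb, the members, the named pathway genes, the 5 dim ligands named after their values were seen, and the genes most like Cxcl13 and Cxcl14) the highest or lowest array was compared with the rest by Dixon's criterion, which chance meets in about 1 in 20 groups, and 8 groups met it. None of these was a group of the 9 members. Rarb-null replicate 5 stood above the other null arrays for 4 of the 5 genes most like Cxcl14: Lgi2 (9.66, others 9.51 to 9.55), St8sia5 (9.69, others 9.28 to 9.36), Dok5 (9.77, others 9.45 to 9.51) and Glrx (8.59, others 8.18 to 8.28). The same array had the highest cortical neuron marker level (9.57) and the highest Cxcl14 level of its group (10.004). These 4 genes were picked by their likeness to Cxcl14 over the same arrays, so their shared high value follows in part from that choice. Their groups are not independent, and the count of 8 cannot be set against the chance rate. Rarb-null replicate 2 was low for Ccl17 (7.56, others 7.90 to 8.03) and high for Ccr7 (7.64, others 7.38 to 7.46). Without it the Ccl17 difference of 0.33 passed (limma adjusted p = 0.0204), where the adjusted p over the alternatives ran from 0.0204 to 0.501. WT replicate 6 was high for Caprin2 (7.71, others 7.45 to 7.53), and WT replicate 5 was low for Ccl28 (5.94, others 6.13 to 6.20).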

How the results depend on the processing

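The differences of Cxcl13, Cxcl14 and Ackr3 kept their sign in every alternative that gave a value (the 60th percentile filter gave none for Cxcl13 and Ackr3), from -2.03 to -1.71, -0.41 to -0.27 and 0.29 to 0.42. The count of all genes called went from 2341 to 1347 when the 3 arrays with extreme cortical markers were removed, to 1360 with the cortical covariate and to 1547 to 2576 with single arrays left out (1547 without Rarb-null replicate 3). Members called went from 2 to 1 with the 60th percentile filter, which removed Cxcl13 from the test, and stayed at 2 with any array left out. They went to 3 with arrays centred and after cyclic loess, where Cx3cr1 passed as higher. Without the filter they were also 3, with Ackr3 added. Other chemokine system genes called went from 4 to 9 with arrays centred and to 8 without the filter, and ran from 3 to 6 with arrays left out. Marker genes called went from 13 to 8 with the 60th percentile filter, the cortical covariate or the 3 arrays removed, and ran from 8 to 14 with arrays left out (8 without WT replicate 4 or 6). Relations called went from 0 to 1 with arrays centred and were 0 with any array left out. Beyond the construction of the filters, the cause was not tested. A replicate block, in which WT replicate 6 has no partner and does not bear on the difference, gave 2872 genes, 2 members, 6 chemokine system genes and 15 markers; same-numbered arrays correlated in their deviations by 0.06 to 0.43, and 2 of 5 null arrays correlated best with their own number, so the numbers were not taken as pairs. Signal over background could not be measured, which limits what the 4 dim members show.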

Other observations

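Some members carried the same value in several arrays. Cxcl16 read 5.4274 in 4 arrays of both genotypes and Cxcr5 read 5.0271 in 4, equal to 4 decimals. Cxcl12, which lay above the filter, read 8.0935 in 2 arrays, and Cxcr4 read 6.0618 in 2. Cxcl13, Cxcl14, Cx3cl1, Cx3cr1 and Ackr3 had 11 distinct values. Such repeats occurred in 62% of 7975 genes below the filter and in 37.7% of 11963 above it. The spread between arrays of Cxcl16 and Cxcr5 therefore rests on fewer distinct values than arrays.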
